A study of Zea mays with 6 samples.

Results

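The loci described here are the transcribed loci of maize (Zea mays) that span more than 30000 bases of chromosomes 1 to 10. A span was taken as the end minus the start plus 1 base, from the coordinates by which the files name each row. Of the 45736 loci that could be joined over the libraries, 291 were this long. Of these, 238 reached 1 FPKM in at least 2 libraries and are called the long loci below. FPKM counts sequenced fragments relative to transcript length and to all fragments mapped in a library. The long loci make up 1.17% of the 20327 loci of any span that reached the same level. RNA came from pooled whole kernels collected 15 days after pollination. The groups were wild-type kernels (replicates 1 and 3, n = 2) and kernels of the dek42 mutant, titled dek42-ref (replicates 1, 2 and 3, n = 3). Values are given in that order throughout, and replicate 2 of the wild type was not analysed here. The genetic background of either group, the number of kernels in a pool and whether replicates came from separate plants are not stated in the labels, so p-values measure the spread between pools, which may be technical.

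Maize genes can span very long stretches of the genome because their introns hold long insertions of transposable elements, mostly retrotransposons, while the mature mRNA is of ordinary length. The primary transcript of such a gene is spliced across these introns to make the mRNA. Defective kernel (dek) mutants have impaired endosperm and embryo development, and the product of Dek42 binds RNA and acts in the splicing of pre-mRNA. The comparison therefore asks whether loci that stretch over long genomic distances differ between the genotypes in the same way as loci of more usual span. Rows carry positions in B73 RefGen_v4 and no gene names, so loci are given by position, their gene identity, exons and introns were not used, and no tissue marker could be looked up. A long span was not shown here to be a long intron, and the transcript length behind each FPKM is not in the files.

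Read totals are not given, so the depth of each library is unknown. Of all 20327 loci tested, 39.2% were higher and 2.29% lower in dek42 as deposited (limma on log2(FPKM + 1), Benjamini-Hochberg adjusted p under 0.05), and the median locus was 0.54 higher on the log2 scale. Because FPKM only gives proportions of a library, each comparison is also given after median-ratio scaling. Each library was divided by a size factor, the median over loci of its FPKM relative to the locus's geometric mean. On that scale the median locus was 0.018 higher, and 7.85% of loci were higher and 7.99% lower. A lower level in a whole kernel can mean fewer cells of a type or less RNA per cell, which cannot be told apart in these pools.

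The long loci were broadly expressed at low to moderate levels. They spanned 30026 to 194479 bases, with a median of 38134. Of the 238, 55 spanned more than 50000 bases and 4 more than 100000. Their mean over the 5 libraries had a median of 7.18 FPKM, with quartiles of 4.06 and 15.0, and the highest was 349.8 FPKM. Expression in every library was the rule, since 216 of them were at 1 FPKM or more in all 5 libraries. In all, 6 reached the filter without a wild-type library and 1 without a dek42 library, and such loci had to differ to be included. Of the 53 long rows that missed the filter, 23 were at 0 in every library and none exceeded 1.89 FPKM in any library. Detection was more frequent than for shorter loci: 81.8% of rows over 30000 bases reached the filter, against 63.1% of the 19928 rows of 2000 to 10000 bases.

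The long loci carried a small share of the signal, larger in dek42. Their FPKM summed to 2695 and 2418 in the wild-type pools, and to 2937, 3546 and 3292 in the dek42 pools. This was 0.218% and 0.227% of the FPKM on chromosomes 1 to 10 in the wild-type libraries, and 0.244%, 0.286% and 0.302% in the dek42 libraries. All 3 dek42 libraries lay above both wild-type libraries in these sums. A rise as deposited was not particular to the long loci, since 83.6% of all loci tested had a change above 0. The locus at chr8:74879412-74913123 alone held 6.81% and 10.2% of the sum in wild type and 13.7%, 14.1% and 12.7% in dek42. The median long locus stood at 6.54 ± 0.36 FPKM in wild type (SD, n = 2) and 8.22 ± 0.61 FPKM in dek42 (SD, n = 3).

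Long loci were higher in dek42 less often than other loci, and their levels shifted less. As deposited, 52 of the 238 long loci rose in dek42 and 4 fell (limma, adjusted p under 0.05). The 52 are 21.8% of the long loci, where 39.2% of all loci tested were higher, and the 4 are 1.68%, where 2.29% were lower. Their median log2 change was 0.29, with quartiles of 0.060 and 0.57. The comparison loci were the 12580 tested loci of over 2000 and up to 10000 bases on the same chromosomes, weighted so that each bin of mean FPKM, 1 log2 unit wide, held the same share of loci as among the long ones. Of these, 39.9% were higher and 1.74% lower, with a median change of 0.53. The ratio of mean FPKM, which needs no pseudocount, had a median log2 of 0.33 for the long loci and 0.62 for the weighted comparison loci. Loci are not replicates, so no test was made of the difference between these classes. The standard error of a change was about the same in both, with medians of 0.21 and 0.22 on the log2 scale.

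After median-ratio scaling the same offset put the long loci below their wild-type level. On this scale 3 long loci rose (1.26%, where 7.85% of all loci were higher) and 22 fell (9.24%, where 7.99% were lower). The share that fell is near that of all loci. Among the weighted comparison loci 6.31% were higher and 7.34% lower. The median log2 change of the long loci was -0.26, against -0.0076 for the weighted comparison loci. The change was above 0 at 67 long loci (28.2%), against 49.3% of the weighted comparison loci. All 3 dek42 libraries lay below both wild-type libraries at 108 long loci (45.4%), where this held for 25.5% of all loci tested. They lay above both at 26 long loci (10.9%), where this held for 26.6%. As deposited, the dek42 libraries lay above at 113 long loci (47.5%, where 60.9% of all loci did) and below at 12 (5.04%, where 5.54% did).

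The counts of called loci depended on which library was left out. On the deposited scale, 29 and 21 long loci rose without wild-type replicate 1 and 3, and 38, 23 and 19 rose without dek42 replicate 1, 2 and 3. Over the same 5 fits the share of long loci that rose was 7.98% to 16.0%, and that of the weighted comparison loci 21.4% to 33.2%, with the long loci lower in each fit. On the median-ratio scale, 8 and 27 long loci fell without wild-type replicate 1 and 3, and 3, 2 and 2 fell without dek42 replicate 1, 2 and 3. In the same order these are 3.36%, 11.3%, 1.26%, 0.84% and 0.84% of the long loci, where 4.47%, 7.06%, 3.37%, 2.27% and 1.19% of all loci were lower. The share of long loci that fell was thus above that of all loci with all libraries and without wild-type replicate 3, and below it in the other 4 fits. The long loci that rose on this scale numbered 1, 5, 1, 0 and 1 (0.42%, 2.1%, 0.42%, 0% and 0.42%), where 4.60%, 7.62%, 3.31%, 2.61% and 1.44% of all loci were higher.

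**Figure D1:**
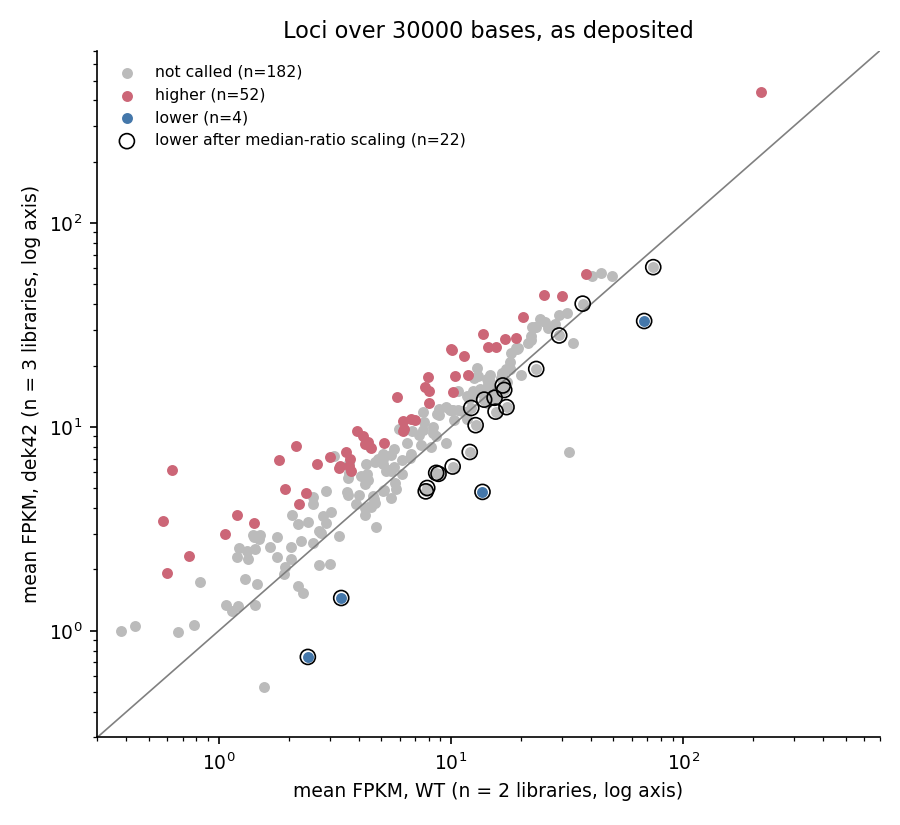
Mean FPKM of each of the 238 long loci in wild type (horizontal, n = 2 libraries) and dek42 (vertical, n = 3), both on log axes, with the line of equal levels. Colours mark the 52 loci that rose and the 4 that fell as deposited, and rings mark the 22 that fell after median-ratio scaling, including all 4 that fell as deposited.

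Set out by library, the offset had a wider spread in wild type. For each locus the deviation of log2(FPKM + 1) from its own mean over the 5 libraries was taken, and the median over the long loci was set against the weighted median over the comparison loci. As deposited, the long loci exceeded the comparison loci by 0.20 and 0.080 in wild-type replicates 1 and 3. They fell short of them in dek42, with differences of -0.10, -0.068 and -0.10 in replicates 1, 2 and 3. The genotypes did not overlap in this difference. A locus's deviations cancel out over the libraries. The opposite signs of the genotypes therefore restate the difference in change, and single libraries do not show it separately. After median-ratio scaling the values were 0.22 and 0.066 in wild type and -0.11, -0.068 and -0.10 in dek42. The wild-type libraries lay further apart from each other than the dek42 libraries did. The median change of the long loci minus that of the comparison loci was -0.24 as deposited with all libraries, -0.18 without wild-type replicate 1 and -0.32 without wild-type replicate 3.

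**Figure D2:**
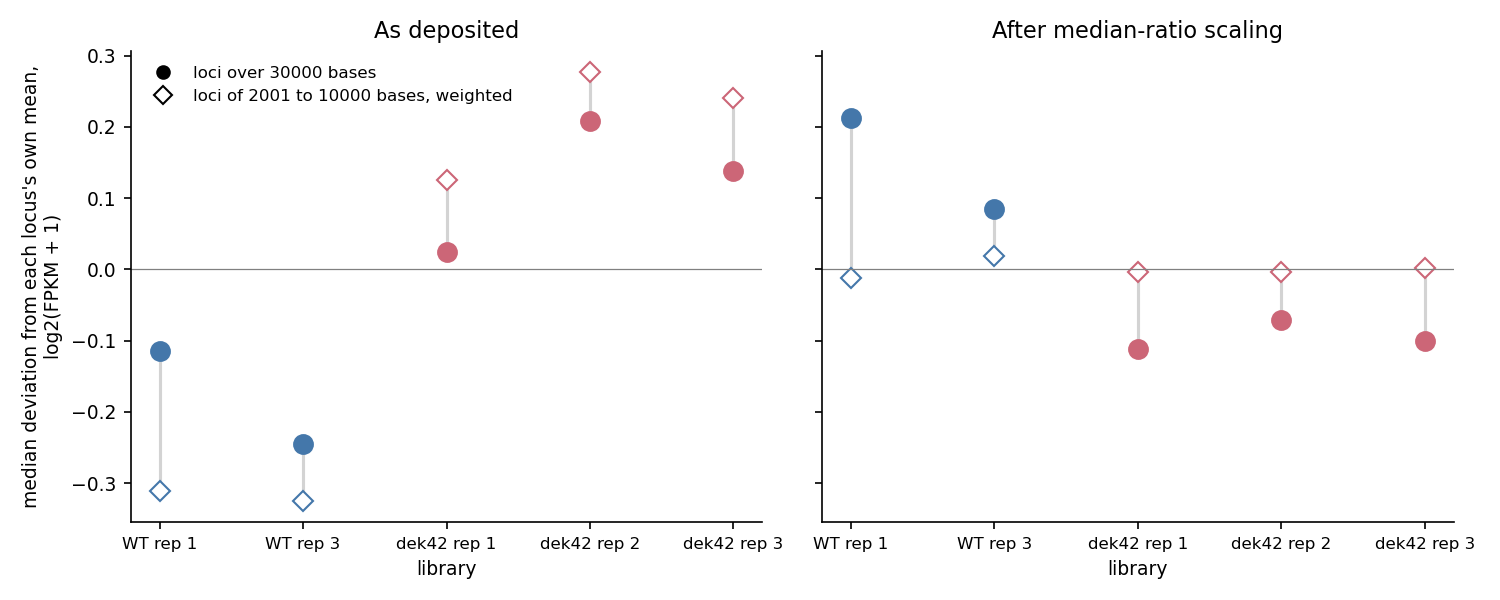
Median deviation of log2(FPKM + 1) from each locus's own mean, for the long loci (filled circles) and the weighted comparison loci (open diamonds) in each of the 5 libraries, as deposited (left) and after median-ratio scaling (right). The long loci lie above the comparison loci in both wild-type libraries, by 0.20 and 0.080 as deposited, and below them in all 3 dek42 libraries. Deviations of a locus cancel out over the libraries, so these opposite sides restate the difference in median change.

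The offset was seen at each level of expression and against neighbouring loci. In bins of mean FPKM, the median change of the long loci lay below that of the comparison loci by 0.32 under 2 FPKM (20 long loci), 0.058 from 2 to 4 FPKM (39), 0.19 from 4 to 8 FPKM (64), 0.30 from 8 to 16 FPKM (63), 0.22 from 16 to 32 FPKM (40) and 0.23 at 32 FPKM or more (12), as deposited. Long loci were called higher less often than comparison loci in each of these bins, with 20.6% against 46.6% from 8 to 16 FPKM and 33.3% against 53.2% at 32 FPKM or more. Each long locus was also set beside the nearest tested locus of 2000 to 10000 bases on its chromosome that did not overlap it, at a median gap of 81950 bases. The long locus had the lower change in 146 of 238 pairs and the higher change in 92, and 39.1% of the neighbours were higher in dek42 against 21.8% of the long loci. This pairing with neighbours was chosen after the data were seen, and the 238 pairs hold 232 different neighbours.

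The median change declined stepwise with span, so the long loci stood at the end of a trend that began at shorter spans. Each class leaves out its lower bound and includes its upper bound. As deposited, the median log2 change was 0.77 for loci of 200 to 1000 bases, 0.53 for 2000 to 5000 bases, 0.52 for 5000 to 10000 bases, 0.46 for 10000 to 20000 bases and 0.37 for 20000 to 30000 bases. Among the long loci it was 0.33 for the 183 of up to 50000 bases and 0.23 for the 55 beyond. The share of loci that rose did not follow the same course. It was 36.7% at 200 to 1000 bases, 38.8% at 1000 to 2000 bases and 39.8% at 2000 to 5000 bases, and then 41.4% at 5000 to 10000 bases, 37.2% at 10000 to 20000 bases and 27.6% at 20000 to 30000 bases. It was 21.9% and 21.8% in the 2 classes of long loci. After median-ratio scaling the medians went from 0.31 at 200 to 1000 bases to -0.25 and -0.31 in the 2 classes of long loci. The order of the 6 classes above 2000 bases was the same with any 1 of the 5 libraries left out, on both scales. Without wild-type replicate 3, the library without which the decline was steepest, the longest class had a median of 0.094 as deposited. Within the long loci the relation of span and change was weak (Spearman's rho -0.11 as deposited and -0.10 scaled, across 238 loci measured in the same 5 libraries).

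**Figure D3:**
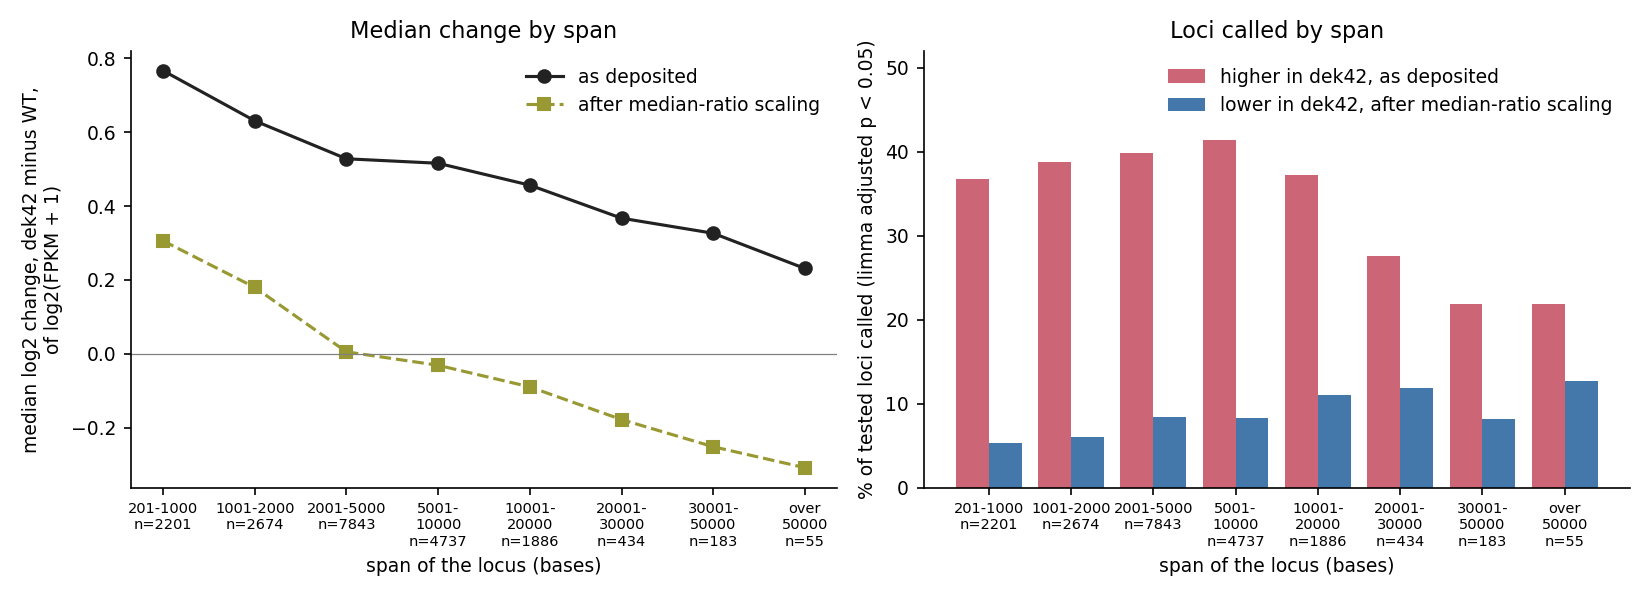
Left, median log2 change (dek42 minus wild type) of loci on chromosomes 1 to 10 by span, as deposited (circles) and after median-ratio scaling (squares). Right, percentage of loci in each class called higher as deposited or lower after scaling. The median is lower in each successive class on both scales, from 0.77 to 0.23 as deposited, and the share of loci that rose goes up from 36.7% in the shortest class plotted to 41.4% at 5000 to 10000 bases and down to 21.8% beyond 50000 bases.

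Calls that held on both scales were few among the long loci, and their share over all loci was not taken. Of all loci, 39.2% were higher as deposited and 7.85% after scaling, so most rises were not called after scaling there either. Of the 52 that rose as deposited, 3 also rose after scaling, and the other 49 were not called. All 4 that fell as deposited also fell after scaling, where 18 more fell. Median-ratio scaling lowers dek42 against wild type at every locus, so rises shrink and falls grow by construction. These counts include loci that reached 1 FPKM in 1 genotype only and so had to differ to be tested. Among the 231 long loci that reached it in both genotypes, 48 rose and 3 fell as deposited. The shares of all loci that reached it in both genotypes were not taken, so these counts have no background. Of the 3 that rose on both scales, 1 was among the 231. The 52 rises had log2 changes of 0.50 to 2.14, with a median of 0.80. As deposited, 14 long loci rose with a log2 change of at least 1 (5.88%, where 18.6% of all loci did) and 2 fell by that much (0.84%, where 1.17% did). After scaling, 3 rose (1.26%, against 4.55%) and 11 fell by that much (4.62%, against 3.78%).

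By log2(FPKM + 1), the largest called change lies at chr7:37785329-37823197. It had 0.367 and 0.886 FPKM in the wild-type pools, and 7.53, 6.40 and 4.56 FPKM in the dek42 pools. Both wild-type values were under 1 FPKM, so the locus was tested only because it is high in dek42, and its difference is given as a description. Its mean was 9.84-fold higher in dek42, with a log2 change of 2.14 as deposited and 1.76 after scaling. The next by log2(FPKM + 1) as deposited (chr4:25972811-26004018) had 1.97 and 2.32 FPKM in the wild-type pools and 6.89, 8.66 and 8.54 FPKM in dek42. The groups did not overlap, as the naming rule required, and each was tight, at 2.15 ± 0.25 FPKM (SD, n = 2) against 8.03 ± 0.99 FPKM (SD, n = 3). It was 3.74-fold higher (limma adjusted p = 0.00315 as deposited and 0.0181 scaled).

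One more long locus rose on both scales and is named after its values were seen. It lies at chr5:64068898-64100088 and had 0.539 and 0.608 FPKM in wild type, and 3.20, 4.16 and 3.04 FPKM in dek42. Its mean was 6.04-fold higher in dek42, a larger ratio than that of the chromosome 4 locus, but it too was tested only because it is high in dek42, and no p is given. A locus of 1809 bases within it (chr5:64070548-64072356) was at 18.5 and 17.3 FPKM in the wild-type pools and 15.5, 17.0 and 14.0 FPKM in dek42. The inner locus thus had the higher FPKM in every library, and all its dek42 libraries lay below both wild-type libraries. The rule by which reads shared by nested rows were assigned is not stated in the labels or headers.

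By log2(FPKM + 1), the largest called fall was at chr2:111723171-111775606. This locus had 12.5 and 14.8 FPKM in the wild-type pools and 4.58, 3.75 and 6.07 FPKM in dek42. Its dek42 libraries all lay well below both wild-type libraries, and its mean was 2.84-fold lower (log2 change -1.35, SE 0.22, limma adjusted p = 0.006 as deposited and 0.00743 scaled). The second was at chr6:163755403-163785784, one of the more abundant long loci, with 66.2 and 69.3 FPKM in the wild-type pools and 33.9, 30.6 and 34.7 FPKM in dek42. Replicates were tight in both genotypes, at 67.8 ± 2.2 (SD, n = 2) and 33.1 ± 2.2 FPKM (SD, n = 3), and no other row overlaps it. It was 2.05-fold lower (limma adjusted p = 0.00298 as deposited and 0.00484 scaled).

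The other 2 falls, named after their values were seen, were at low levels. The locus at chr4:193545826-193587771 had 3.19 and 1.65 FPKM in the wild-type pools and 0.952, 0.601 and 0.680 FPKM in dek42, a mean 3.25-fold lower and the largest ratio of the 4 falls. It reached 1 FPKM in no dek42 library, so it was tested only because it is high in wild type, and no p is given. The locus at chr9:51358328-51394263 had 4.24 and 2.49 FPKM in the wild-type pools and 1.37, 1.48 and 1.49 FPKM in dek42 (limma adjusted p = 0.0421). In both, wild-type replicate 1 was the highest library, and the dek42 libraries lay within a narrow range. With 1 library left out, the chromosome 9 locus was called only without wild-type replicate 3, and its limma adjusted p reached 0.212 without wild-type replicate 1.

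One larger difference passed the test only under some settings. The locus at chr4:212400943-212462446, also chosen after its values were seen, had 32.8 and 31.4 FPKM in wild type. In dek42 replicate 1 it was listed at 0, and the other dek42 pools had 8.44 and 14.1 FPKM (log2 change -2.66, limma adjusted p = 0.0809 as deposited and 0.0716 scaled). Without dek42 replicate 1 the log2 change was -1.47 and the locus was called (limma adjusted p = 0.0168), as it was without dek42 replicate 3 (0.0485). With the other libraries left out in turn the adjusted p was 0.0979 to 0.215. It was the only long locus listed at 0 in any library, and an exact 0 can be a failed estimate.

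**Figure D4:**
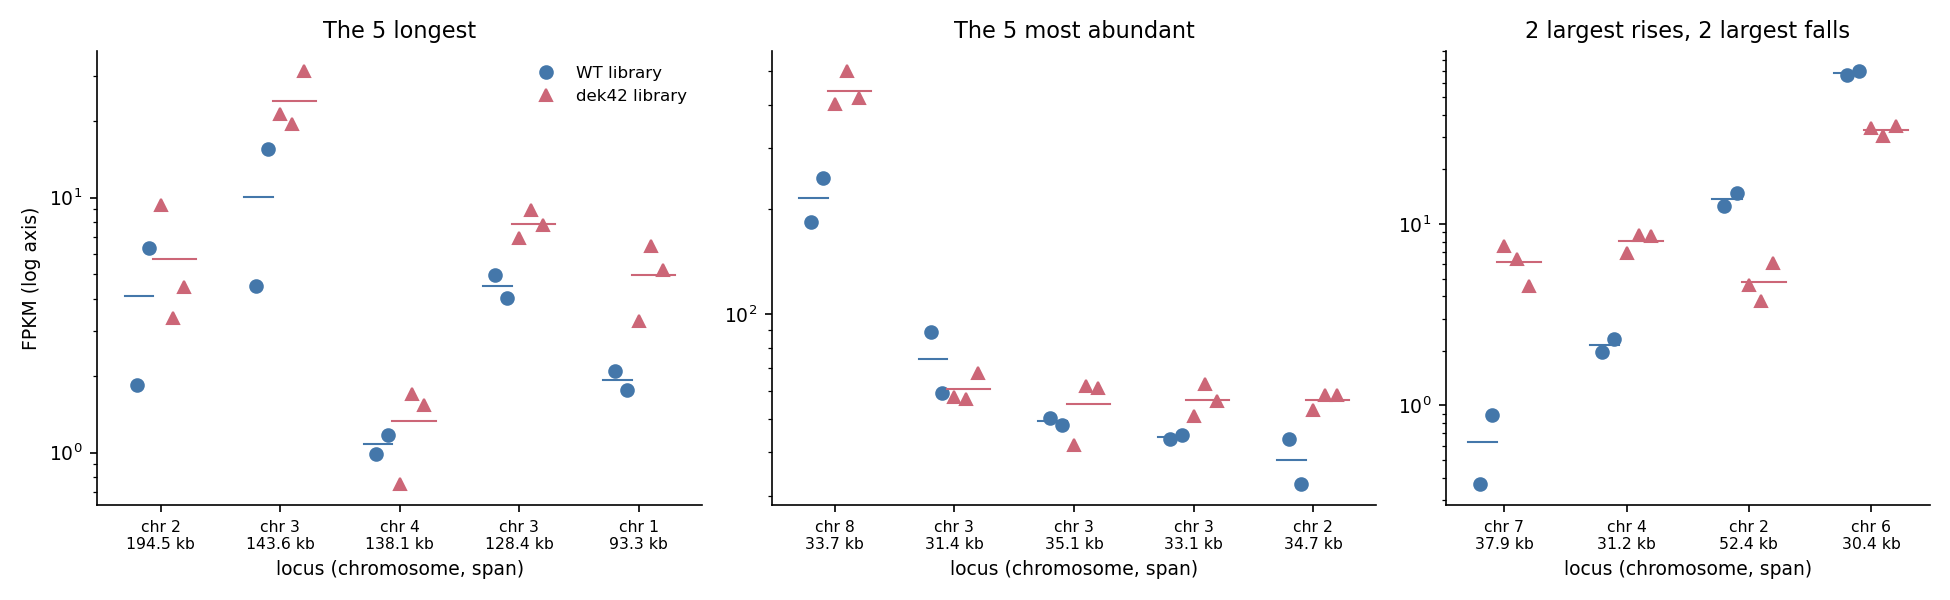
FPKM on log axes in each library (circles, wild type; triangles, dek42; lines, group means) for the 5 longest loci, the 5 most abundant long loci, and the 2 largest rises and 2 largest falls. The last 4 loci were chosen among called loci whose wild-type and dek42 libraries do not overlap, so their separation follows from the choice. The libraries overlap in 2 of the 5 longest and 2 of the 5 most abundant.

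All 5 longest loci had a change above 0 as deposited, where 83.6% of all loci did. Of the 5, 3 rose, where 39.2% of all loci did. The longest, at chr2:209197748-209392226, had 1.85 and 6.35 FPKM in the wild-type pools and 9.39, 3.36 and 4.47 FPKM in dek42, with overlapping groups (limma adjusted p = 0.481). It contains 4 tested loci, of which the most abundant (chr2:209341867-209344124) had 76.6 and 84.9 FPKM in the wild-type pools and 124, 148 and 133 FPKM in dek42. The locus at chr3:49664481-49808108 (143628 bases) had 4.50 and 15.5 FPKM in the wild-type pools and 21.3, 19.4 and 31.3 FPKM in dek42. Its wild-type libraries lay far apart, the groups did not overlap, and it was just past the threshold (limma adjusted p = 0.0499 as deposited and 0.292 scaled). Without wild-type replicate 3 its adjusted p was 0.00887, and without any one of the other libraries it was not called. It overlaps 4 tested loci, 2 at each end.

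The next was at chr4:96971361-97109426 and stood near the filter, with 0.986 and 1.17 FPKM in the wild-type pools and 0.751, 1.70 and 1.54 FPKM in dek42 (limma adjusted p = 0.699). The locus at chr3:30043616-30172018 had 4.98 and 4.04 FPKM in the wild-type pools and 6.92, 8.92 and 7.82 FPKM in dek42. The locus at chr1:6068282-6161610 had 2.09 and 1.75 FPKM in the wild-type pools and 3.29, 6.47 and 5.18 FPKM in dek42. These last 2 rose as deposited, 1.75-fold and 2.59-fold (limma adjusted p = 0.0307 and 0.0299), and were not called after scaling (0.579 and 0.176). With 1 library left out, both calls held only without dek42 replicate 1, and the limma adjusted p reached 0.115 and 0.111 without wild-type replicate 3.

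Of the 5 most abundant long loci, 2 rose as deposited and none fell, where 39.2% of all loci were higher and 2.29% lower. At chr8:74879412-74913123, wild-type replicates had 183 and 247 FPKM and dek42 replicates 402, 499 and 418 FPKM. The dek42 mean was 2.04-fold higher, at 439.6 ± 52.2 FPKM (SD, n = 3) against 215 ± 44.7 FPKM (SD, n = 2), with a limma adjusted p of 0.00813 as deposited and 0.193 after scaling. This 1 locus held between 6.81% and 14.1% of the summed FPKM of the long loci in a library. At chr3:196046161-196077554, levels were 88.9 and 59.4 FPKM in the wild-type pools and 57.8, 57.0 and 67.5 FPKM in dek42. Its groups overlapped as deposited (limma adjusted p = 0.312), and it fell after scaling (0.0292).

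The remaining 3 of the most abundant long loci had closely similar levels to each other. At chr3:231978930-232014020 there were 50.3 and 48.0 FPKM in the wild-type pools and 42.1, 61.9 and 61.4 FPKM in dek42 (limma adjusted p = 0.577). At chr3:99796958-99830105 there were 43.6 and 44.9 FPKM in the wild-type pools and 50.9, 63.1 and 56.2 FPKM in dek42 (limma adjusted p = 0.0887). At chr2:132209574-132244262 there were 43.8 and 32.4 FPKM in the wild-type pools and 52.8, 58.3 and 58.3 FPKM in dek42, with no overlap and a rise of 1.48-fold (limma adjusted p = 0.0322). With 1 library left out it was called only without wild-type replicate 1, and without wild-type replicate 3 its log2 change went from 0.57 to 0.36 (limma adjusted p = 0.106). After scaling the log2 changes of these 3 loci were -0.48, -0.28 and -0.053, and none was called.

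Overlap with other rows was common among the long loci. Another row overlapped 75 of them (31.5%), against 8.61% of the comparison loci, and 64 contained another row entirely. The 163 long loci that overlap no other row had a median log2 change of 0.25 as deposited and -0.28 after scaling, and 31 of them rose as deposited (19.0%, where 39.2% of all loci did). The 75 that overlap another row had medians of 0.45 and -0.097, and 21 rose (28.0%). Tested loci lying inside a long locus numbered 14, in 11 hosts, and had a median span of 2033 bases. As deposited 6 of the 14 inner loci rose and 1 fell, and 3 of the 11 hosts rose and none fell. Of all loci, 39.2% were higher and 2.29% lower on that scale. After scaling 3 inner loci rose and 2 fell, and 1 host rose and 1 fell. There 7.85% of all loci were higher and 7.99% lower.

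The long loci lay somewhat more often in the inner parts of chromosomes than the comparison loci. Each chromosome was cut into 5 equal segments from base 1 to the end of its last row. Segments 2, 3 and 4 held 15.1%, 14.3% and 19.3% of the long loci, against 9.73%, 9.84% and 19.4% of the comparison loci. The share that rose varied with position: 16 of 42 long loci in segment 1 (38.1%), 10 of 36 in segment 2 (27.8%), 7 of 34 in segment 3 (20.6%), 5 of 46 in segment 4 (10.9%) and 14 of 80 in segment 5 (17.5%). Among the comparison loci the shares were level, from 37.5% to 42.7%. The median change of the long loci was 0.52 in segment 1, about that of the comparison loci there (0.53), and 0.23 to 0.29 in the other 4. Whether position changes the offset was not tested. By chromosome, the median change of the long loci ran from 0.043 on chromosome 9 (16 loci) to 0.45 on chromosome 2 (28 loci), and each of the 10 medians lay below that of all loci tested on the same chromosome.

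**Figure D5:**
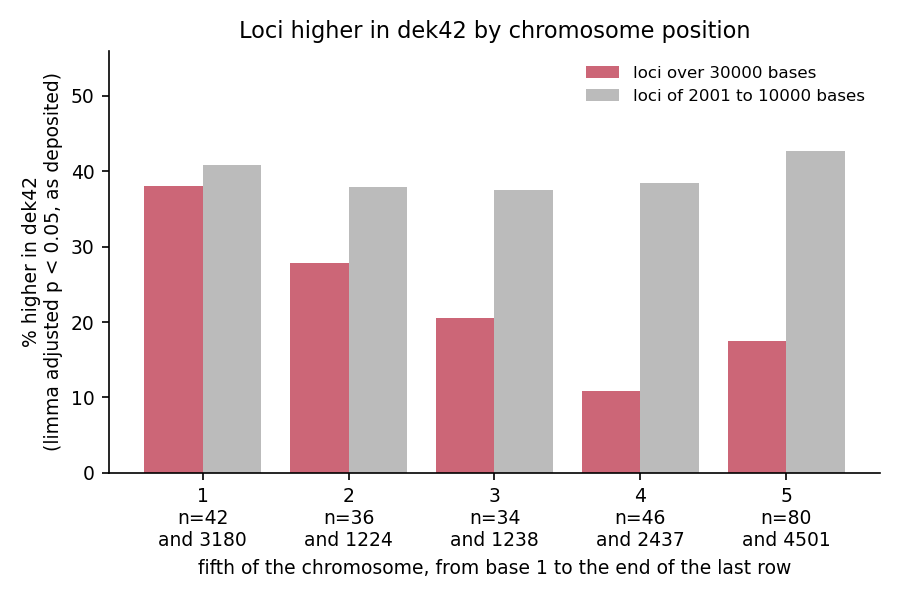
Percentage of loci higher in dek42 as deposited (limma adjusted p under 0.05) by segment of the chromosome (5 equal parts), for the long loci and the loci of 2000 to 10000 bases, with both numbers of loci under each pair of bars. The long loci go from 38.1% in segment 1 to 10.9% in segment 4, while the comparison loci stay between 37.5% and 42.7%.

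The loci nearest the 30000-base threshold are given as a description, with no test. Just inside, the locus at chr7:15378835-15408860 had 5.94 and 5.80 FPKM in the wild-type pools and 12.0, 15.6 and 14.6 FPKM in dek42. Also just inside, that at chr9:96779811-96809887 had 11.5 and 10.9 FPKM in the wild-type pools and 10.4, 13.1 and 12.5 FPKM in dek42. Just outside, the locus at chr6:136997575-137027536 (29962 bases) had 7.19 and 9.05 FPKM in the wild-type pools and 9.31, 12.8 and 10.4 FPKM in dek42. That at chr5:213494646-213524574 (29929 bases) had 25.5 and 16.5 FPKM in the wild-type pools and 24.3, 21.5 and 25.6 FPKM in dek42.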

How the data were processed

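RNA sequencing of pooled kernels was analysed in 2 wild-type and 3 dek42 libraries, with 1 of the 6 libraries in the labels not analysed here. Values are FPKM per locus as deposited, per the file headers. The submitters' processing notes name TopHat2 2.1.0, Cufflinks 2.2.1 and B73 RefGen_v4, without parameters. Libraries were joined by position, since row order differs between them. Of 45764 rows, 14 spans listed as 2 rows each, at 0 FPKM throughout, were left out, giving 45736 loci. Depth is unknown, so no counting error can be given. Whether starts count from 0 or 1 is not stated.

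A locus was tested if at 1 FPKM or more in at least 2 libraries. Log2(FPKM + 1) was fitted with limma 3.58.1 (R 4.3.3; lmFit, eBayes with trend), with Benjamini-Hochberg adjustment of p over all 20327 loci. Fold changes on this scale understate those of low loci. Median-ratio size factors came from loci above 0 in every library. Summaries used Python 3.11.15, pandas 2.3.3 and numpy 2.4.6, with plots from matplotlib 3.10.9. The procedure was tested on simulated data. With planted rises at 100 loci each, limma called 39% of log2 changes of 1 and 99% of changes of 2. These loci were drawn from those with a mean log2(FPKM + 1) over 2, with independent noise for each library. There were 11 false calls in 20327 loci. A locus that was not called can therefore still differ by a log2 change of 1. In the data many more loci were called, which loosens the adjusted cut-off, and some long loci lay lower, so these shares may differ there. The 5 longest and 5 most abundant long loci and the 2 largest called rises and falls were named by rule, and others are marked as chosen after their values were seen. The rises and falls were taken only from called loci whose wild-type and dek42 libraries did not overlap. The members and lists were chosen with earlier results of these data known. Alternatives were other pseudocounts, filters, normalizations, span limits and comparison loci, a replicate block, and each library left out.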

Additional observations from a re-analysis of the deposited data

How the results depend on the processing

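The median change of the long loci lay below that of the comparison loci under every alternative run. Other pseudocounts and quantile normalization were run from the deposited values only, and the rest on both scales. Without 1 library at a time, 19 to 38 long loci were higher and 2 to 6 lower as deposited, with a difference of medians of -0.32 to -0.18. After median-ratio scaling 0 to 5 were higher and 2 to 27 lower, with a median change of -0.34 to -0.21 and a difference of -0.34 to -0.17. Among all loci 22.8% to 32.9% were higher and 1.34% to 2.32% lower as deposited, and 1.44% to 7.62% higher and 1.19% to 7.06% lower after scaling. Quantile normalization gave 3 higher and 25 lower (1.26% and 10.5%, where 7.48% and 7.83% of all loci were), and turned the median change to -0.26. Without a filter on low values 268 long loci were fitted, of which 36 (13.4%) were higher and 2 (0.746%) lower as deposited. After scaling 3 of these (1.12%) were higher and 11 (4.1%) lower. The shares of all loci were not taken at this setting. The background of the next counts is that of all loci with all libraries, 39.2% higher and 2.29% lower as deposited and 7.85% and 7.99% after scaling. Among the 672 loci over 20000 bases, 172 (25.6%) were higher and 12 (1.79%) lower as deposited, with a difference of -0.18. After scaling 13 of them (1.93%) were higher and 73 (10.9%) lower. Among the 55 loci over 50000 bases, 12 (21.8%) were higher and 1 (1.82%) lower as deposited, with a difference of -0.29. After scaling 0 of them were higher and 7 (12.7%) lower. Of the 163 long loci that overlap no other row, 31 (19.0%) were higher as deposited and 1 (0.613%) after scaling.

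Replicate numbers 1 and 3 are shared by the genotypes, but same-numbered libraries did not deviate together (r = 0.0057 and -0.015 across 20327 loci), so the numbers were not taken as pairs. With a replicate block 13 long loci were higher as deposited (5.46%, where 20.7% of all loci were) and 3 lower (1.26%, against 1.45%). After scaling 0 were higher, where only 0.989% of all loci were, and 2 lower (0.84%, about the 0.846% of all loci).

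Median-ratio scaling lowers dek42 against wild type at every locus, moving the median of all loci from 0.54 to 0.018, so small positive changes turn negative by construction. The log2 change became -0.053 at chr2:132209574-132244262 after median-ratio scaling. Under quantile normalization and median-ratio scaling it was -0.11 and -0.047 at chr2:209197748-209392226, -0.39 and -0.48 at chr3:231978930-232014020, -0.19 and -0.28 at chr3:99796958-99830105, and -0.44 and -0.21 at chr4:96971361-97109426. With 1 library left out it ran from -0.23 to 1.14 at chr2:209197748-209392226 and from -0.55 to 0.027 at chr3:196046161-196077554. The cause of these last changes was not tested. With 2 wild-type libraries and no read totals, small changes of low loci could not be resolved.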
